A study of Sus scrofa with 16 samples.

Results

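The S100 family of calcium-binding proteins was read in liver and colonic mucosa of pigs that had eaten a diet with purified corn starch (CS) or raw potato starch (RPS). The 10 genes S100A1, S100A2, S100A4, S100A6, S100A8, S100A9, S100A10, S100A11, S100A12 and S100G were listed, and their probes were sought on a porcine Agilent array by the gene name of the scanner files. That rule found 11 probes of 6 of the 10 genes, among 7237 gene symbols that could be assigned to probes of the array. A further 11 probes belonged to listed genes under another name. These were S100A2 (3 probes, by accession), S100A4 (1 probe, by gene ID), S100A10 (4 probes, by protein name) and S100A11 (3 more probes, by protein name), so that 22 probes of 9 listed genes were read. No probe was found for S100A1. S100A3, S100A5, S100A7, S100A13, S100A14 and S100A16 were not listed and had 11 probes together.

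All pigs were Duroc × Landrace × Large White barrows, that is castrated males, and 170 days old at sampling. The RPS diet held 230 g of raw potato starch per kg of feed during growing and 280 g per kg during finishing in place of the same amount of corn starch, which the CS diet kept. Each of the 4 groups, liver CS, liver RPS, colon CS and colon RPS, held 4 arrays of total RNA, 1 array per pig within a group. By the methods too few pigs were slaughtered per diet for all its liver and colon arrays to be of different animals, so that some pigs must have given both tissues if both were taken in that trial. The labels do not tie the arrays of the 2 tissues to pigs, and the fit over all 16 arrays takes them as independent. Colonic mucosa holds epithelium, immune cells and stroma, so that fewer cells of a type and less RNA per cell cannot be told apart. Every group lay on a slide of its own, so that slide and group cannot be told apart either.

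S100 proteins are small proteins that bind calcium through paired EF-hand loops and mostly act as dimers. S100A8 and S100A9 form calprotectin, which neutrophils and monocytes carry in large amounts and release at sites of inflammation, and S100A12 is another protein of the same cells. These proteins signal through the receptors AGER and TLR4 and, in calprotectin, withhold zinc and manganese from bacteria. S100A10 binds annexin A2 at the membrane, S100A6, S100A4, S100A11 and S100A2 are intracellular partners of cytoskeletal and signalling proteins, and S100G, or calbindin D9k, carries calcium across absorptive epithelium under the control of vitamin D. In the RefSeq annotation of the pig assembly Sscrofa11.1, 9 of the listed genes lay in 1 row, and S100G lay elsewhere. S100A8, S100A12 and S100A9 were direct neighbors with 0 protein-coding genes between them, and S100A11 and S100A10 were neighbors as well, with 29 protein-coding genes between S100A9 and S100A11. The scanner files place no S100 probe on a genome build, so no coordinates are given.

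The oligonucleotides below show what the myeloid probes and a coding probe of S100A6 could bind. Capitals mark the letters TTNNANGANT, which cover the codons at the end of a calcium-binding loop in S100 proteins.
S100A8: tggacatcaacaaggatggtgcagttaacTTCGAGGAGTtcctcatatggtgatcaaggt
S100A9: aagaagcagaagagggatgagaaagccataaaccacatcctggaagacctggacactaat
S100A12: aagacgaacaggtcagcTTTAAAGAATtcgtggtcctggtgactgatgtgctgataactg
S100A6: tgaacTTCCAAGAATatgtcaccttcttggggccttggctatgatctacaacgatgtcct
The letters stood in the S100A8, S100A12 and S100A6 probes and not in the S100A9 probe, which ends before that part of its loop. They occurred in 2.35% of all 43603 probes as printed and in 4.49% on either strand, and no overlap with another motif was searched. The 3 myeloid genes had 1 probe each, so a fault of a probe would go unnoticed there.

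Signals are given on the log2 scale after quantile normalization, over the 8 arrays of a tissue for the diets and over all 16 arrays for the tissues. Differences are given with their standard error from the limma fit. The members were selected on their signals by diet and by tissue on these same arrays, so their differences are a description without a test, and the calls are counted only beside the share of all probes called. A diet call needed a fold above 1.5 at an unadjusted p below 0.05, and a tissue call the same fold at an adjusted p below 0.05. Between 61.1% and 65.9% of the probes on the liver arrays and between 64.9% and 72.2% on the colon arrays were well above background, as the scanner software marks it.

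Whether colon and liver differ in S100 transcripts was addressed first. The myeloid genes were lower in colon than in liver, and the other measured S100 genes were mostly higher. S100A8 read 5.98 at the lowest, 7.17 at the median and 7.997 at the highest of the 8 liver arrays, and 1.43, 5.32 and 6.37 in colon. The difference was -2.28 (SE 0.53), or 4.87-fold lower in colon, and the tissues overlapped. S100A9 read 4.37, 5.16 and 6.11 in liver and 1.07, 3.46 and 4.25 in colon. Every colon array was below every liver array for S100A9, with a difference of -1.97 (SE 0.40), and 5 of the 8 colon arrays were well above background. S100A12 read 5.82, 6.68 and 7.85 in liver and 3.29, 5.21 and 6.12 in colon, a difference of -1.73 (SE 0.38) with overlapping tissues.

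The 3 myeloid probes were called lower in colon, beside 18.7% of all probes. With the normexp background correction, which adds a constant of 50 to every signal, the differences shrank to -0.86 for S100A8, -0.66 for S100A12 and -0.39 for S100A9, and S100A9 no longer passed the fold threshold. Of 28 neutrophil markers 17 could be measured, with a median difference of -0.53 beside 0.01 over all probes. Of these 17, 2 were called higher in colon and 6 lower, beside 23.4% and 18.7% of all probes. MPO, the peroxidase of neutrophil granules, was well above background on 2 of 8 liver arrays and 0 of 8 colon arrays, and TREM1 on 4 of 8 and 0 of 8. Other markers of the list were detected on more colon than liver arrays. These were PMAP-23 (4 of 8 in liver and 8 of 8 in colon), RETN (5 and 8), PMAP-36 (3 and 5), PGLYRP1 (4 and 5), LCN2 (6 and 7) and BPI (0 and 8). PR39, an antibacterial peptide of porcine neutrophils, was 4.72-fold lower in colon, whereas MMP9 was 6.13-fold higher and BPI, a granule protein that binds endotoxin and is also made by gut epithelium, was at least 1971-fold higher. The summed signal of the list, which BPI sets in colon, ran from 11.25 to 12.33 in liver and from 12.83 to 14.45 in colon. Its part in the S100 difference was not tested.

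**Figure D1:**
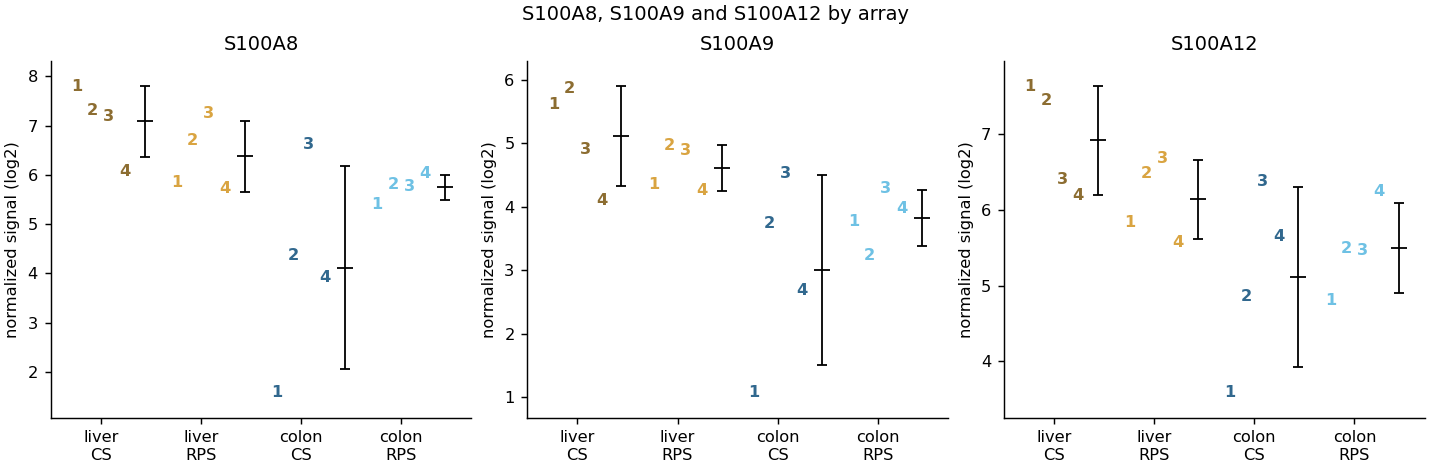
Normalized signal (log2) of S100A8, S100A9 and S100A12 on each array by group, with digits for the replicate number and bars for the mean ± SD of 4 arrays. Diet groups are normalized within a tissue, so liver and colon lie on separately normalized scales. Colon CS replicate 1 is the lowest array for all 3 genes, and colon CS replicate 3 is the highest colon array for all 3.

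S100G and S100A6 differed most between the tissues, and their order depended on the background correction. At the S100G probe A_72_P088751 the liver arrays read 3.14 at the lowest, 3.92 at the median and 4.73 at the highest, and the colon arrays 5.28, 13.24 and 15.47. The difference was 8.39 (SE 1.21), or 336-fold, the tissues did not overlap, and 5 of the 8 liver arrays were well above background. The second probe, A_72_P701142, gave 8.79 (SE 1.30), and 2 of the 8 liver arrays were well above background there. The other probe, A_72_P496336, carries the name S100G in the scanner files but did not share this pattern, with 6.05 ± 0.23 in liver and 5.55 ± 0.61 in colon (SD, n = 8) and no call. With both colon arrays that stood apart left out (below), the first probe gave 10.20 (SE 0.34), a setting chosen after the values were seen. With the normexp background it gave 5.73 (SE 1.01) and the second probe 5.39 (SE 0.99), where the 4 probes of S100A6 gave 5.78 to 6.54.

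S100A6 had 4 probes between 6.01 and 6.71 on the log2 scale, or 64.3-fold to 105-fold higher in colon. Its probe A_72_P732728 read 9.67 to 10.38 in liver with a median of 10.03, and 15.53 to 17.45 in colon with a median of 16.82. No liver array reached any colon array at any of the 4 probes. S100A2, a member known from keratinocytes and other epithelia, was higher in colon by 4.38 (SE 0.58) at A_72_P599953 and by 4.30 (SE 0.57) at A_72_P281844, with overlapping tissues. Its dim probe, A_72_P474966, was not well above background on any liver array, and colon was at least 14.5-fold higher there.

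The remaining members differed less. S100A10 was higher in colon by 1.42 to 1.75 at its 4 probes. S100A11 was higher by 1.24 (SE 0.17) at A_72_P423459 and by 1.08 (SE 0.18) at A_72_P041606. It differed by 0.41 (SE 0.11) at A_72_P324328, which did not pass the fold threshold. Its probe A_72_P023026 was well above background on 0 of 8 liver arrays and 1 of 8 colon arrays and gives no fold. S100A4, at its single probe, read 9.32, 10.27 and 10.95 in liver and 10.83, 11.25 and 12.55 in colon, a difference of 1.15 (SE 0.25). In all, 16 of the 22 probes were called higher in colon, beside 23.4% of all probes, and 3 lower. The median over the 19 probes outside the myeloid genes was 1.75, and over all 43603 probes 0.01.

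**Figure D2:**
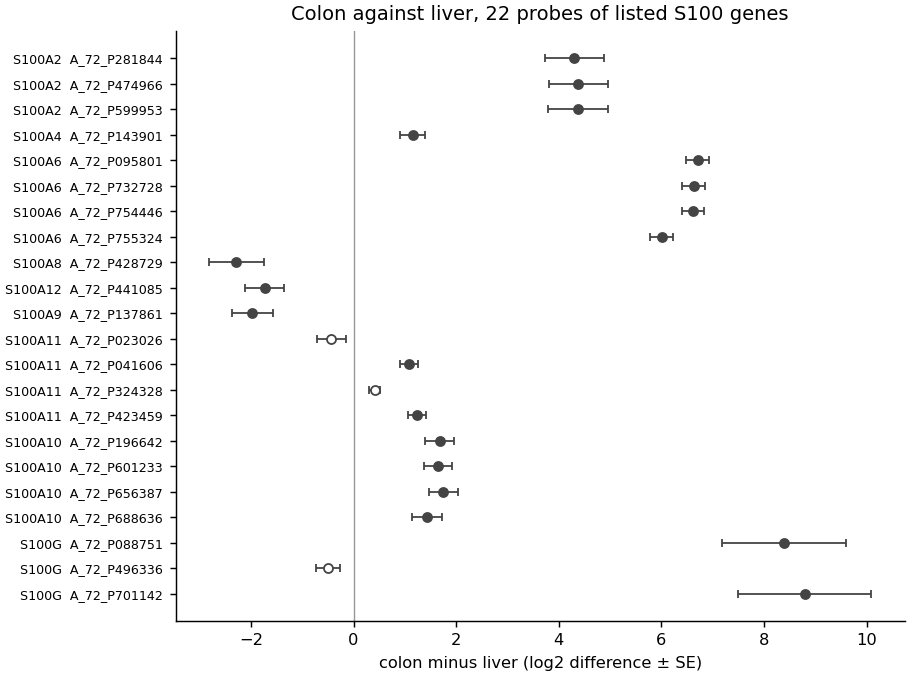
Colon minus liver (log2 difference ± SE of the fit over 16 arrays) for the 22 probes of the listed S100 genes in the order of the genes on Sscrofa11.1, with S100G last. Filled points were called. S100A8, S100A12 and S100A9 lie left of 0 and the called probes of the other genes right of it.

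The S100 genes that were not listed were read in the same way. S100A14, an epithelial member, was higher in colon by 5.84 (SE 0.35) at both of its probes, and S100A16 by 1.05 to 2.29 at 5 probes. S100A5 was at least 6.65-fold higher in colon, with 0 of 8 liver arrays well above background. S100A13 differed by 0.29 and S100A7, or psoriasin, by -0.20, without a call, and S100A3 was not above background on any array. By brightest probe, 3 of these 6 genes were called higher in colon and 0 lower, beside 23.4% and 18.7% of all probes.

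Genes that work with S100 proteins were mostly higher in colon. Of 28 partners and receptors 17 could be measured, with a median of 1.12 beside 0.01 over all probes. Of these 17, 12 were called higher in colon and 1 lower, beside 23.4% and 18.7% of all probes. ANXA2, the partner of S100A10, was 7.35-fold higher, and CD36, a lipid receptor, was higher by 3.45 on the log2 scale. RYR2, a calcium release channel, was 12.7-fold higher, with 1 of 8 liver arrays and 8 of 8 colon arrays well above background, so that its size rests on a dim liver signal. AGER was not well above background on any of the 16 arrays. Of 13 genes of epithelial calcium transport 8 could be measured and 5 were called higher in colon and 0 lower, with a median of 0.81. Among them VDR, the vitamin D receptor that controls S100G, was at least 12.6-fold higher, the intestinal regulator CDX2 at least 109-fold higher, and the calcium pump gene ATP2B1 4.46-fold higher.

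Tissue markers separated the samples as labelled, beside 23.4% of all probes called higher in colon and 18.7% called lower. Of 16 measured epithelium markers 14 were called higher in colon, with KRT20 at least 7695-fold, SLC26A3 at least 1737-fold and CA1 3729-fold higher. All 13 measured hepatocyte markers were lower in colon, with TTR at least 70125-fold, FGG at least 68033-fold and FGA at least 34422-fold lower. All 11 measured lymphocyte markers were higher in colon, with MS4A1 23.8-fold and CD79A 15.7-fold. Of 15 macrophage and monocyte markers 3 were called higher in colon and 4 lower. CD14 was 58.1-fold and MRC1 11.7-fold lower, whereas LYZ, also a product of gut epithelium, was 167-fold higher. Of 12 stromal markers 8 were called higher, among them DCN by 2.48 and VIM by 1.77, and 2 lower, among them CDH5 by -2.50.

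The S100 genes varied widely among the colon arrays. S100G at A_72_P088751 read 13.90, 13.10, 5.55 and 13.10 in colon CS, and 14.90, 8.88, 13.38 and 15.41 in colon RPS. Replicate 3 of colon CS and replicate 2 of colon RPS were thus far below the others of their groups. The same 2 arrays were the lowest of their groups at all 4 probes of S100A6 and of S100A10. S100A6 at A_72_P732728 read 16.95, 16.76, 15.48 and 16.88 in colon CS and 16.94, 16.23, 16.77 and 17.46 in colon RPS. S100A10 at A_72_P196642 read 14.34, 14.47, 12.78 and 14.23 in colon CS and 14.47, 13.25, 14.66 and 14.70 in colon RPS.

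On these 2 arrays the epithelium markers were low and the lymphocyte markers high. The summed signal of the 16 epithelium markers was 18.19 on colon CS replicate 3 and 18.84 on colon RPS replicate 2, against 19.76 to 20.25 on the other 6 colon arrays. The summed signal of the 11 lymphocyte markers was 14.76 and 14.33 there, against 12.09 to 13.30. ANXA2 was also lowest on both, at 14.57 and 15.11, and the B cell marker MS4A1 highest, at 12.72 and 12.57. S100A4, known from lymphoid and stromal cells, did not follow S100G and was highest of its group on colon CS replicate 3, at 12.59 against 10.97 to 11.63. On colon RPS replicate 2 it read 11.38, within the 11.21 to 11.38 of that group. S100A11 at A_72_P041606 did not follow S100G either, with 11.95 and 12.15 on the 2 arrays, the latter highest of its group. S100A2 at A_72_P599953 was lowest of its group on colon RPS replicate 2, at 10.35, but not on colon CS replicate 3, at 11.74. The part of tissue composition in these values was not tested.

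**Figure D3:**
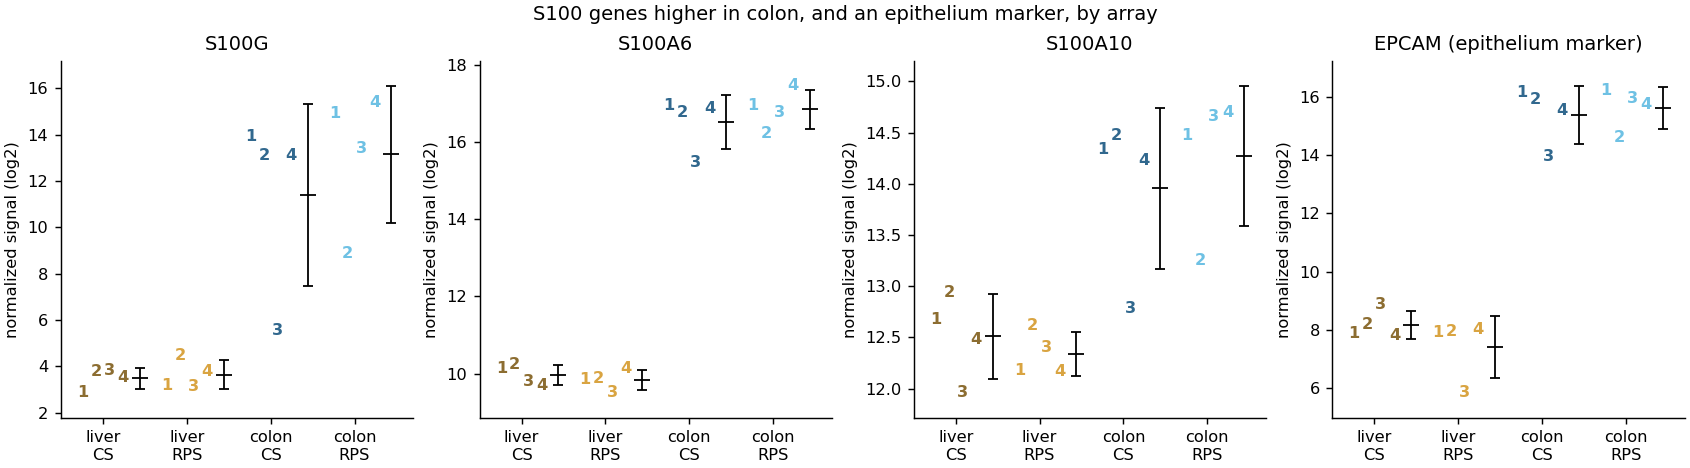
Normalized signal (log2) of S100G, S100A6, S100A10 (probes A_72_P088751, A_72_P732728 and A_72_P196642) and of the epithelium marker EPCAM on each array by group, with digits for the replicate number and bars for the mean ± SD of 4 arrays. Colon CS replicate 3 and colon RPS replicate 2 are the lowest colon arrays in each panel.

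Whether the RPS diet changed S100 transcripts in liver was read next. S100A2 was the single member called there. At A_72_P599953 the liver CS arrays read 10.75, 7.33, 7.06 and 9.75, and the liver RPS arrays 6.72, 5.89, 5.43 and 6.11. All 4 RPS arrays were below all 4 CS arrays, and 2 CS arrays, replicates 1 and 4, were far above the other 2. The difference was -2.69 (SE 0.85), or 6.44-fold lower with RPS. A_72_P281844 gave -2.58 (SE 0.85), with a nearly identical pattern over the arrays, and the dim probe A_72_P474966 was not well above background on any liver array. Without CS replicate 1 the difference at A_72_P599953 was -2.01 (SE 0.70), and over all settings tried it ranged from -3.24 to -1.84.

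In the liver, 2 of the 22 probes were called lower, beside 1.76% of all probes, and 0 were called higher, beside 1.80%. The groups did not overlap at the same 2 of 22 probes, beside 4.45% of all probes. No S100 probe passed an adjusted p under 0.05, which 0.00229% of all probes did, or 1 of 43603. Both probes lie at the same place of the S100A2 transcript and are not independent.

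The myeloid members averaged lower with RPS in the liver, with overlapping groups and no call. S100A8 read 7.79, 7.31, 7.18 and 6.07 in liver CS and 5.84, 6.71, 7.24 and 5.73 in liver RPS, with a difference of -0.71 (SE 0.46). S100A12 read 7.63, 7.44, 6.40 and 6.20 with CS and 5.84, 6.48, 6.67 and 5.57 with RPS, with a difference of -0.78 (SE 0.41). S100A9 read 5.60, 5.86, 4.91 and 4.10 with CS and 4.35, 4.96, 4.88 and 4.25 with RPS, with a difference of -0.51 (SE 0.40). The groups overlapped for all 3 genes, and CS replicate 4 was the lowest CS array for each. Leaving out that lowest array raises the CS mean. All 3 were then called, at -1.05 for S100A8, -1.02 for S100A12 and -0.84 for S100A9. In that fit 850 of all 43603 probes were called lower. Each of the 3 genes was called in 1 of 18 settings, and this was that setting.

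Other genes of neutrophils were read beside them. NPG4, a protegrin stored in neutrophil granules, read 10.68, 9.29, 10.62 and 7.85 in liver CS and 6.70, 7.30, 8.79 and 7.64 in liver RPS. It was 4.01-fold lower with RPS and past the p and fold thresholds, but not after adjustment (limma, adjusted p = 0.582). It was the single neutrophil marker of 17 called in the liver, beside 1.76% of all probes called lower. The median of the list was -0.35, beside -0.004 over all probes. The summed signal of the list was 11.53 to 12.33 in liver CS and 11.25 to 11.64 in liver RPS, and its part in the S100 values was not tested. The other members were close between the diets in liver, and S100A6, S100A10 and S100A11 were among them. Their probes ranged from -0.26 to 0.15, apart from the S100A11 probe A_72_P023026. It gave 0.53 but was well above background on 0 of 8 liver arrays, so that this value cannot be read as a diet difference. The range includes S100G, whose probes A_72_P701142 and A_72_P088751 were well above background on 2 and 5 of 8 liver arrays. Their small differences therefore do not show that S100G was unchanged. Of the epithelium markers, CDH1 and CA1 were called lower in the liver with RPS, both by -0.80, with adjusted p-values of 0.442 and 0.626 in limma.

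**Figure D4:**
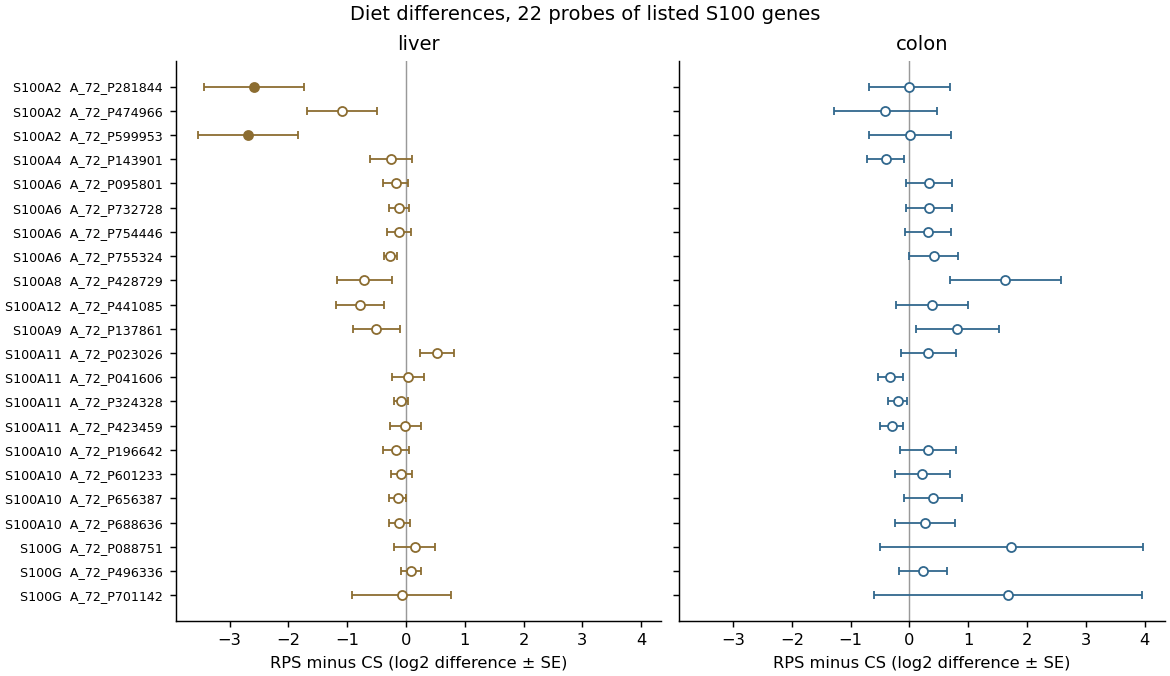
RPS minus CS (log2 difference ± SE of the fit over 8 arrays) in liver and in colon for the 22 probes of the listed S100 genes in the order of the genes on Sscrofa11.1, with S100G last. Filled points were called, which were the probes A_72_P281844 and A_72_P599953 of S100A2 in the liver.

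In the colon no listed S100 gene was called for diet. There were 0 of 22 probes called higher, beside 1.62% of all probes, and 0 called lower, beside 1.32%. The groups did not overlap at 0 of 22 probes, beside 6.52% of all probes, and an adjusted p under 0.05 was reached by 0% of all probes. Scaling to the 75th percentile moved the split over all probes from 708 higher and 575 lower to 1358 higher and 610 lower and still called 0 of the 22. S100A8 read 1.57, 4.36, 6.62 and 3.93 in colon CS and 5.40, 5.80, 5.77 and 6.02 in colon RPS. The RPS arrays lay close together and the CS arrays ranged over 5.04, with CS replicate 3 above every RPS array. The difference was 1.63 (SE 0.95). Without colon CS replicate 3 it was 2.46 (SE 0.66) and was called, and with both arrays that stood apart left out it was 2.43 (SE 0.76) and was called. Both settings leave out the single CS array that lay above the RPS arrays. They were the only 2 of 19 settings with a call for S100A8. In these fits 686 and 1087 of all 43603 probes were called higher. With the normexp background the S100A8 difference was 0.35 (SE 0.24), without a call. For this gene 3 of the 4 CS arrays and all 4 RPS arrays were well above background.

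S100A9 read 1.07, 3.73, 4.53 and 2.68 with CS and 3.77, 3.24, 4.29 and 3.96 with RPS, with a difference of 0.81 (SE 0.71). Only 2 CS arrays and 3 RPS arrays were well above background for it. S100A12 read 3.58, 4.86, 6.37 and 5.65 with CS and 4.80, 5.48, 5.47 and 6.25 with RPS, with a difference of 0.39 (SE 0.61). The CS arrays were again the more spread of the groups, with replicate 1 lowest and replicate 3 highest.

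S100G at A_72_P088751 differed by 1.73 (SE 2.23) and, with both arrays that stood apart left out, by 1.19 (SE 0.58). S100A2 at A_72_P599953 read 12.18, 12.74, 11.74 and 11.55 in colon CS and 12.05, 10.35, 11.99 and 13.87 in colon RPS, with a difference of 0.01 (SE 0.70). S100A6, S100A10, S100A11 and S100A4 differed by -0.40 to 0.41, and the groups of each overlapped. The median signal before normalization was 56.3 to 70.8 on the colon CS arrays and 34.2 to 42.5 on the colon RPS arrays, and its part in the values of dim probes was not tested.

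S100A13, which was not listed, stood out among the S100 genes in the colon. It read 6.68, 6.46, 6.38 and 6.49 in colon CS and 7.79, 7.67, 7.66 and 8.38 in colon RPS. All RPS arrays were above all CS arrays, by 1.37 (SE 0.18), or 2.59-fold. Over all probes, the colon groups did not overlap at 6.52%, and 1.62% were called higher with RPS. S100A13 had a single probe, so a fault of it would go unnoticed. The call did not hold after adjustment (limma, adjusted p = 0.189), and it was made under all 19 settings, which gave 0.86 to 1.45. In the liver S100A13 read 6.18 to 6.77 with CS and 6.26 to 6.55 with RPS. S100A13 is known for the release of growth factors without a signal peptide. Of the other S100 genes that were not listed, 0 were called for diet in either tissue.

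**Figure D5:**
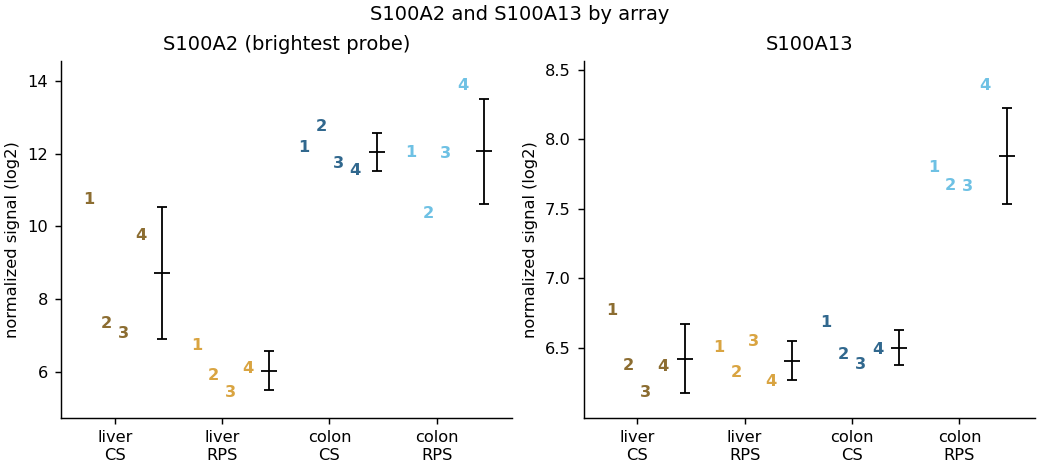
Normalized signal (log2) of S100A2 (probe A_72_P599953) and S100A13 on each array by group, with digits for the replicate number and bars for the mean ± SD of 4 arrays. S100A2 is lower in all 4 liver RPS arrays than in any liver CS array, and S100A13 is higher in all 4 colon RPS arrays than in any colon CS array.

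Among the genes read beside the S100 family in colon, 4 of 17 neutrophil markers were called higher with RPS and 0 lower. Over all probes these shares were 1.62% and 1.32%. The list median was -0.09, beside 0.01 over all probes. PR39 read 3.93, 3.85, 3.82 and 2.38 in colon CS and 6.08, 5.74, 3.79 and 4.64 in colon RPS, and was 2.96-fold higher (limma, adjusted p = 0.889). PMAP-23, a further cathelicidin, was 2.76-fold higher (adjusted p = 0.559), NPG4 1.74-fold (adjusted p = 0.789) and CEBPE, a granulocyte transcription factor, 1.55-fold (adjusted p = 0.914), all with limma. The summed signal of the list was 13.11 to 14.45 in colon CS and 12.83 to 14.34 in colon RPS. Of 15 macrophage and monocyte markers 3 were called lower with RPS, which were the complement genes C1QA, C1QB and C1QC at -0.88, -1.27 and -1.30, with adjusted p-values of 0.819, 0.594 and 0.657 in limma. CD4 was called lower by -0.99 (adjusted p = 0.756 in limma), and the stromal genes COL1A2 and PDGFRB by -0.72 and -0.66 (adjusted p = 0.803 and 0.747 in limma). All 11 lymphocyte markers were lower with RPS, with a median of -0.59. So were 11 of 12 stromal markers (median -0.35) and 11 of 15 macrophage and monocyte markers (median -0.30). Of 16 epithelium markers 15 were higher, with a median of 0.22 and 0 called. AGER was called at a signal that was not above background on any array. No gene of the calcium transport list was called for diet in either tissue.

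The diet difference in colon was set against that in liver in the fit over all 16 arrays. Of the 22 probes, 3 were called with the colon difference above the liver difference, beside 2.04% of all probes, and 0 the other way, beside 1.72%. An adjusted p under 0.05 was reached by 0 of the 22 probes and by 0.00229% of all probes. The called probes were S100A8 at 2.30 (SE 1.07) and S100A2 at 2.65 (SE 1.16) and 2.53 (SE 1.15). With the normexp background none of these 3 was called, and they gave 0.70 for S100A8 and 1.93 and 1.82 for S100A2. S100A9 gave 1.24 and S100A12 1.15, without a call. Without colon CS replicate 3, the highest CS array of all 3 genes, they were called, at 1.72 and 1.58, as was S100A8 at 3.13. In that fit 931 of all 43603 probes were called in the same direction. The difference for S100A8 was called in 3 of the 16 fits that each left out 1 array, in which it ranged from 1.49 to 3.13, and that for S100A2 in 5 of 16, with a range of 1.98 to 3.26. Outside the family, 3 of 17 neutrophil markers were called above and 0 below, with a list median of 0.17 beside 0.01 over all probes. NPG4 gave 2.78, PMAP-23 3.17 and PR39 3.42, with adjusted p-values of 0.675, 0.751 and 0.777 in limma. Of the macrophage and monocyte markers 3 of 15 were called below, which were C1QA, C1QB and C1QC at -0.76, -1.15 and -1.17, with a list median of -0.34. CD4 was the single call of 11 lymphocyte markers, at -1.07 with a list median of -0.94, and ACTA2, the smooth muscle actin gene, that of 12 stromal markers, at -0.89 with a list median of -0.08. CA1 was the single call of 16 epithelium markers, at 1.27 with a list median of 0.42. The adjusted p-values of these 6 genes were 0.772 to 0.999 in limma. S100A13 gave 1.42 (SE 0.24, adjusted p = 0.242 in limma).

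S100A8, S100A9 and S100A12 also moved together among pigs of the same tissue and diet. Over the 8 liver arrays, after the mean of each diet group was taken off, Pearson's r was 0.84 for S100A8 and S100A9, 0.88 for S100A12 and S100A8, and 0.91 for S100A12 and S100A9. The 2 arrays farthest from the median of 1 gene of the pair were then left out. That gene was S100A8 for the first pair and S100A12 for the others, so the 6 arrays left can differ between pairs. Over these 6 arrays r was 0.60, 0.80 and 0.97. In colon the values were 0.92, 0.88 and 0.75 over 8 arrays and 0.45, 0.44 and -0.22 over 6, so that in colon they rest on the outermost arrays. S100A9 was well above background on only 5 of the 8 colon arrays. Such values were not particular to the myeloid genes. In liver r was 0.82 for S100A11 and S100A4 and 0.74 for S100A10 and S100A12 over 8 arrays, and 0.90 and 0.78 over 6. In colon r with S100G was 0.97 for S100A6 and 0.97 for S100A10 over 8 arrays, and 0.83 and -0.10 over 6. Other pairs were weak or negative, such as S100A8 and S100G over 8 arrays, at -0.16 in liver and -0.69 in colon. The points share their slide, and r is given as a description.

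The genes with the most similar pattern were sought in the same way among 5328 genes in liver and 5527 in colon with signal well above background on every one of the 8 arrays. In liver these were RUSC1 (r = 0.955), KISS1 (0.934) and COLGALT1 (0.927) for S100A8. They were THAP9 (0.965), SIAHBP1 (0.962) and the plasma protein gene APCS (0.953) for S100A9, and LOC100153898 (0.959), HPS5 (0.949) and PPP1R9B (0.945) for S100A12. In colon they were NABP1 (0.929), EIF2AK3 (0.896) and PPP1R8 (0.891) for S100A8, and TIGAR (0.849), PCDH7 (0.845) and LOC100157008 (0.843) for S100A9. For S100A12 they were LOC100521092 (0.957), GUSB (0.921) and LOC100525051 (0.915). Without the 2 farthest arrays r was 0.80 to 0.98 for the genes named in liver. In colon it was 0.20 for NABP1, 0.69 for EIF2AK3 and 0.73 for PPP1R8, and 0.48 for TIGAR, 0.28 for PCDH7 and 0.67 for LOC100157008. It was 0.70 to 0.92 for the genes named for S100A12 in colon. The likeness in colon to S100A8 and S100A9 thus rests largely on 2 arrays for NABP1, TIGAR and PCDH7. No gene was named for more than 1 of the 3 members in a tissue. The named genes are the highest of 5328 or 5527 values of r over 8 arrays, and the arrays left are among the same 8. Neither r can therefore show that a likeness exceeds what unrelated genes would reach.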

How the data were processed

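Total RNA of liver and colonic mucosa was labelled with Cy3 and hybridized to 16 one-colour Agilent arrays. According to the submitters' processing notes the authors used Agilent Feature Extraction 10.7. Per the file headers its processed intensity is background-subtracted and not normalized between arrays, and the deposited table of the authors holds quantile normalized log2 values, which differed by at most 0.393 from the values computed here over 16 arrays. The microarray methods describe the colon, and the liver arrays were taken as processed in the same way.

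From the scanner files, control spots were dropped, spots marked as outliers were treated as missing, and the log2 of each processed signal was quantile normalized and averaged per probe. Differences were fitted with limma 3.58.1 in R 4.3.3 (lmFit and eBayes), without a filter on signal and with Benjamini-Hochberg adjustment over the 43603 probes. The difference of the diet effect between tissues was an interaction term. Tables and figures were made with pandas 2.3.3 and matplotlib 3.10.9, and the fit was tested on simulated data.

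The members, the gene lists and the tests were chosen with earlier results of these data known. The text names every listed S100 gene that has a probe, and some of the probes appear only within a range or a count. Of the gene lists, it names each gene whose brightest probe was called for diet, and otherwise the 3 with the largest difference between tissues per list. It also names the 3 genes most like each myeloid member. Beyond the rule it names MPO, TREM1, RETN, PMAP-36, PGLYRP1, LCN2, AGER and EPCAM, chosen after their values were seen. A list gene was read at its brightest probe, whereas the shares called are over all probes. "At least" marks a bound, for which the dim tissue was set, array by array, to the lowest signal well above background or the probe's own signal, whichever was higher. The labels name replicates as separate samples of a group, and 4 arrays per group limit the precision. Replicate arrays of a group correlated at 0.960 to 0.988, and no pair was identical. Probe names of RefSeq Sscrofa11.1 matched 10378 probes by symbol and others by accession, gene ID, older name or description.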

Additional observations from a re-analysis of the deposited data

Results flagged for a closer look

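For 23 S100 probes in 4 groups each, 92 groups in all, it was asked by Dixon's test whether the highest or lowest of the 4 arrays lay apart from the rest, which chance gives in about 1 of 20 groups. This was so in 10 groups. Probes of 1 gene were read on the same arrays, so the groups are not independent and the 10 cannot be set against that rate. Colon CS replicate 3 was lowest and apart for S100G (5.55 at A_72_P088751 and 4.69 at A_72_P701142), S100A6 (15.48 at A_72_P732728) and S100A10 (12.78, 12.31 and 11.93 at A_72_P196642, A_72_P601233 and A_72_P656387). Colon RPS replicate 2 was lowest and apart for S100A10 (13.25 and 12.64 at A_72_P196642 and A_72_P656387). These are the 2 arrays with low epithelium and high lymphocyte markers, and the part of tissue composition was not tested. For S100A11, liver CS replicate 3 was highest and apart at A_72_P324328 (10.27) and colon CS replicate 2 at A_72_P423459 (11.999).

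The diet difference in colon exceeded that in liver for S100A8 (2.30), S100A2 (2.53 and 2.65) and S100A13 (1.42), by the interaction term without adjustment. None of these 4 probes passed the adjustment over all probes.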

How the results depend on the processing

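The counts of called S100 probes were 2 of 22 for diet in liver, 0 in colon, 19 for tissue and 3 for the diet difference between tissues. With the normexp background, 1 probe was called for the diet difference between tissues, which was S100A12 at 0.64, and 18 for tissue. Leaving out each array in turn gave 2 to 5 calls in liver, 0 to 1 in colon, 19 to 20 for tissue and 0 to 3 for the difference between tissues. The 5 calls in liver came without CS replicate 4, and single calls in colon without CS replicate 3 (S100A8) or CS replicate 4 (a dim S100A11 probe). The difference between tissues gave 0 calls without liver CS replicate 1, liver RPS replicate 2 or 4, colon CS replicate 1 or 4, or colon RPS replicate 1, 3 or 4. Leaving out colon CS replicate 3 and colon RPS replicate 2 together, chosen after the values were seen, gave 1 call in colon. Other scaling, the authors' log2 values, outlier spots kept, the signal filter, the intensity trend, the methods' t-test (0 calls after Benjamini-Hochberg) and slide as a random block gave the main counts wherever each was run. With the replicate number as a block in the fits of 1 tissue there were 2 calls in liver and 0 in colon. In the fit over both tissues, same-numbered liver and colon arrays of a diet were taken as 1 pig and the pig as a random block. That setting gave 19 calls for tissue and 3 for the difference between tissues. Same-numbered arrays correlated between -0.51 and 0.55 in their deviations from the group means. Each was closest to its own number in liver and colon CS but not in the other pairings. The main fits therefore did not take the numbers to pair pigs. Over all probes, 1554 were called for diet in liver, 1283 in colon and 1638 for the difference between tissues. These became 220, 172 and 296 with normexp, and 965, 780 and 1096 with the signal filter, which tests fewer probes. Without colon RPS replicate 2 the last 2 counts were 2635 and 2802, with both colon arrays left out 2385 and 2602, and 75th percentile scaling gave 1968 in colon. For tissue, 10223 were called higher and 8156 lower, and 6112 and 4721 with normexp. The normexp offset limits what can be read from dim probes such as S100A9.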
